A study of Mus musculus with 9 samples.

Results

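The 10 genes described here mark immature neurons and growing axons: Dcx, Nnat, Sox11, Sox4, Basp1, Gap43, Stmn2, Marcksl1, Cd24a and Dpysl3. They were chosen by symbol as a named set, and all 10 were found among the 23038 genes of the study's tables. A young sensory neuron extends its axon to skin or muscle and into the spinal cord with a growth cone, the motile tip whose actin and microtubules these proteins help to shape. Sox4 and Sox11 are transcription factors of the SoxC group that switch on neuronal genes at the end of division. After birth, as dorsal root ganglion neurons reach their targets and mature, the growth programme is known to be turned down, and injury of the peripheral axon can turn parts of it on again.

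The study profiled sorted mechanosensory neurons from dorsal root ganglia of newborn mice of both sexes on a mixed C57/Sv129 background, in 9 bulk libraries that form 3 groups of 3. TrkC:GFP neurons carry a bacterial artificial chromosome transgene with GFP under Ntrk3 control and were described as proprioceptors with slowly adapting low-threshold mechanoreceptors; these animals were sampled at postnatal day 6, 2 and 1. Rx3+/+;PV:tdT neurons come from mice wild type for Runx3 that carry PV:Cre, which drives recombination in parvalbumin-expressing cells, and a Cre-dependent tdTomato reporter, named Ai14 in the sample labels and Ai9 in the design text. They were described as proprioceptors with rapidly adapting mechanoreceptors and were taken at day 6, 4 and 3. Rx3-/-;PV:tdT neurons carry the same alleles on a Runx3 mutant background, in which proprioceptors are reported to die, leaving rapidly adapting mechanoreceptors; they were taken at day 3, 0 and 0. Samples pooled 2 to 4 animals, apart from 2 of the 3 mutant samples, which came from 1 animal each. They are called TrkC, wild-type PV and mutant PV neurons below, with mean ages of 3.0, 4.33 and 1.0 days.

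Levels are the authors' RPKM (reads scaled to gene length and library size), 1 value per group. Fold changes and p-values are those of the authors' edgeR comparison tables, without standard errors. For 9 of the 10 genes, Stmn2 excepted, whole reads per library were also recovered from the digits of the RPKM values; they are given as CPM (reads scaled to library size, not to gene length) with the mean ± SD of 3 libraries, in the order deepest, middle and shallowest library of a group. These libraries are known by depth and cannot be matched to a labelled age. A gene is called where the Benjamini-Hochberg adjusted p over all 23038 genes is under 0.05. Nothing ties samples across groups or says whether litters were shared. Samples within a group differ in age or in number of pooled animals. The p-values thus cover a sample-to-sample spread that can include these differences as well as technical ones. Library totals read from the RPKM steps of single reads ran from 4.5 to 13.7 M reads, with the smallest in the mutant PV group. Avil, a pan-sensory neuron gene, stood at 195 RPKM in TrkC, 185 in wild-type PV and 188 in mutant PV neurons. Other sensory neuron markers were not all level. Prph was at 351, 358 and 833 RPKM, Pou4f1 at 3.22, 3.29 and 9.0 and Ntrk2 at 3.04, 5.87 and 58.7. Each was called higher in mutants than in both other groups. Tubb3, at 337, 272 and 423 RPKM, was called higher in mutants than in wild-type PV neurons only. Isl1, at 40.2, 37.3 and 30.3 RPKM, was not called against mutants. The genes behind the sort varied: Pvalb was at 353, 200 and 67 RPKM and Ntrk3, the gene of TrkC, at 141, 81.6 and 25.4, both called lower in mutants, while Ret was at 11.4, 32.6 and 211 and called higher there. Reads of kidney genes were found in 2 of the 3 mutant libraries, as described below.

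Of the 10 genes, 9 had their highest RPKM in mutant PV neurons, the group with the youngest animals. The exception was Marcksl1, highest in TrkC neurons. For 7 of the 10 genes the order was mutant PV, then TrkC, then wild-type PV, which is also the order of rising mean age. Among the 11191 genes with an RPKM of 1 or more in every group, 38.7% were highest in mutants and 27.0% had that order. Age, Runx3 genotype and cell makeup differ together between the groups and cannot be told apart. As in any bulk measurement, fewer cells of a type and less RNA per cell cannot be told apart either.

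**Figure D1:**
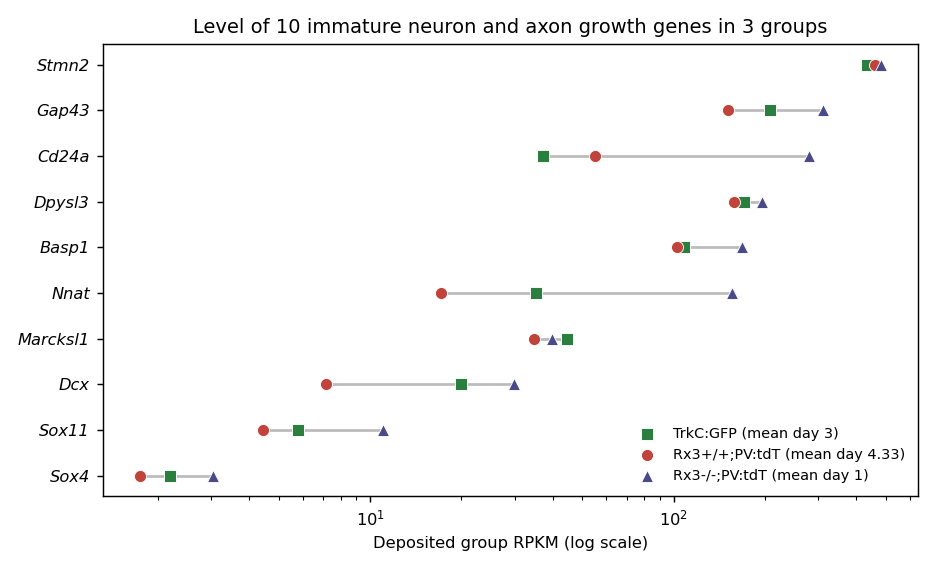
Deposited RPKM (log axis) of the 10 genes, with 1 point per group and no error bars because the tables give 1 value per group; a grey line joins the lowest and highest group. Mutant PV neurons (triangles) lie furthest right for 9 of the 10 genes, with wide gaps to both other groups for Cd24a and Nnat. For Dcx the wide gap is to wild-type PV neurons, and for Stmn2 the points nearly coincide.

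Against mutant PV neurons, 6 of the 10 genes were called lower in wild-type PV neurons and 0 higher. Over all genes compared there, 8.57% were called lower, 7.82% higher and 16.4% in either direction. In TrkC neurons 4 of the 10 were called lower than in mutants and 0 higher, where 4.2% of all genes were called lower, 5.87% higher and 10.1% either way. Between wild-type PV and TrkC neurons 1 of the 10 was called, lower in wild-type PV neurons, against 2.08% of all genes called lower, 0.699% higher and 2.78% either way. The median log2 fold change of the 10 genes in the authors' deposited tables was -0.92 for wild-type PV over mutant neurons, -0.58 for TrkC over mutant neurons and -0.34 for wild-type PV over TrkC neurons. The same medians over the 11191 expressed genes were -0.01, 0.08 and -0.08. Each pair of these comparisons shares a group of samples, so their directions are not independent of each other.

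Library by library, the groups separated for part of the 9 genes with recovered reads. Every wild-type PV library was below every mutant library for 7 of 9 (Dcx, Nnat, Sox11, Basp1, Gap43, Cd24a and Dpysl3), and every TrkC library was below every mutant library for 5 of 9 (Nnat, Sox11, Basp1, Gap43 and Cd24a). The share of all genes that separate in this way was not computed, so whether these counts are unusual was not tested. Separation also occurred without a call, for Dpysl3 in wild-type PV and for Gap43 in TrkC neurons. Between wild-type PV and TrkC neurons 1 of 9 genes separated, the uncalled Marcksl1, lower in wild-type PV. Dcx, the gene called there, overlapped. The middle TrkC library was the lowest of its group for all 9 genes. In the wild-type PV group the deepest library was the highest for 8 of 9. The mutant libraries had no such constant order.

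**Figure D2:**
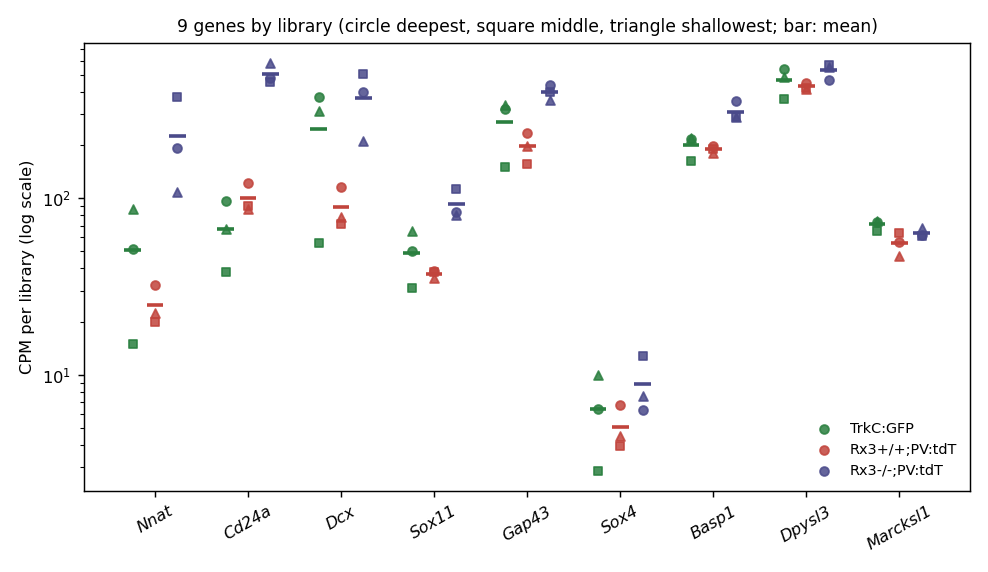
CPM (log axis) of 9 genes in each of the 9 libraries, from recovered reads, with a bar for the mean of 3 libraries and a marker shape for the depth rank within the group. Mutant PV libraries (blue) stand apart for Cd24a, at 459 to 586 CPM against at most 122 elsewhere, and the middle TrkC library (green square) lies lowest of its group for each gene.

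**Figure D3:**
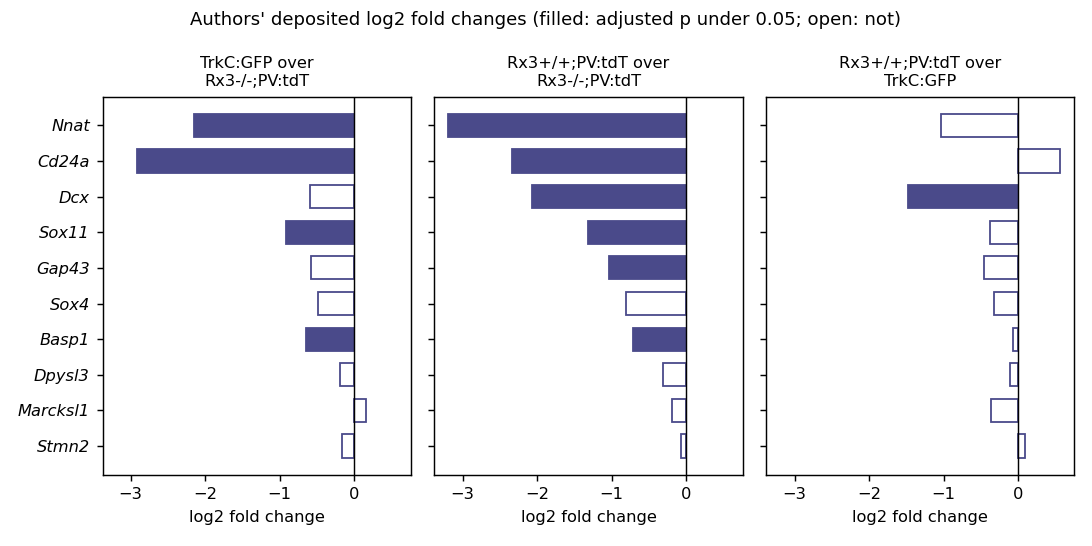
Log2 fold changes of the 10 genes from the authors' deposited tables in the 3 comparisons of single groups, with filled bars for an adjusted p under 0.05 and open bars for the rest. Cd24a and Nnat have the longest bars against mutants, those of Stmn2, Marcksl1 and Dpysl3 stay near 0, and Dcx has the filled bar in the right panel.

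The transcription factors came first. Sox11 (chromosome 12, 27334268 to 27342718, GRCm38.p6) was at 5.79 RPKM in TrkC, 4.44 in wild-type PV and 11 in mutant PV neurons, about 648 reads per library on average. Per library it had 50.1, 30.9 and 65.4 CPM in TrkC (48.8 ± 17.3, SD, n = 3), 38.6, 38.2 and 35.4 in wild-type PV (37.4 ± 1.71) and 83.4, 113 and 80.5 in mutant PV neurons (92.5 ± 18.2). Every mutant library was above every other library. Its log2 fold change in the authors' deposited table was -1.31 for wild-type PV over mutant neurons (adjusted edgeR p = 2.5e-09) and -0.92 for TrkC over mutant neurons (adjusted p = 0.01). Sox4 (chromosome 13, 28948919 to 28953699), its close relative, followed the same order at a lower level, with 2.19, 1.74 and 3.03 RPKM. It was not called: the authors' deposited tables gave -0.81 for wild-type PV over mutant neurons (adjusted edgeR p = 0.17, unadjusted p = 0.042) and -0.48 for TrkC over mutant neurons (adjusted p = 0.82). Sox4 was the most thinly read of the 10 genes, at about 75.8 reads per library, and its libraries overlapped, with 2.85 to 9.9 CPM in TrkC, 3.95 to 6.7 in wild-type PV and 6.3 to 12.7 in mutant PV neurons. Sox12, the other SoxC gene, was at 8.3, 7.02 and 8.77 RPKM and was not called in either comparison with mutants.

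Promoters are shown for the SoxC genes because they have the same order of levels but unequal calls, and for Nnat and Basp1 as genes called in both comparisons with mutants. Each sequence is the 250 bases before the RefSeq start in GRCm38.p6, 5′ to 3′ on the gene's strand. Capitals mark matches on either strand to 4 words: TGTGGT (the core RUNX word, searched because Runx3 is the mutated gene), the E-box CAGCTG, the SOX word ACAAAG and the TATA word TATAAA.
Sox11 (chr12:27342719-27342968, minus strand): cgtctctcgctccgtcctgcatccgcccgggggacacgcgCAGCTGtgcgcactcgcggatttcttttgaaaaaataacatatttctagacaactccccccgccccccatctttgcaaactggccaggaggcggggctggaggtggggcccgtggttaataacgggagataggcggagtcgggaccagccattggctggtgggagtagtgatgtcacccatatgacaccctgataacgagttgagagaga
Sox4 (chr13:28953700-28953949, minus strand): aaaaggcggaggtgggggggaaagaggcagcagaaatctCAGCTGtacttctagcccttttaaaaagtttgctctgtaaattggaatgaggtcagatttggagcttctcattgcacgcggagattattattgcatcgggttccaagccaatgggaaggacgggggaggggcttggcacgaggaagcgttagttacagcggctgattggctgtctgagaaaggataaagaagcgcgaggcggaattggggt
Nnat (chr2:157559828-157560077, plus strand): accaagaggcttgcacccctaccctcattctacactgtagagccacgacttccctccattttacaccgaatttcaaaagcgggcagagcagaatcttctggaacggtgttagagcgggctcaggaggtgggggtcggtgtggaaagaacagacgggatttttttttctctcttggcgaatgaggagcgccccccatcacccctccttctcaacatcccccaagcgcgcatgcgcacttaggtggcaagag
Basp1 (chr15:25413765-25414014, minus strand): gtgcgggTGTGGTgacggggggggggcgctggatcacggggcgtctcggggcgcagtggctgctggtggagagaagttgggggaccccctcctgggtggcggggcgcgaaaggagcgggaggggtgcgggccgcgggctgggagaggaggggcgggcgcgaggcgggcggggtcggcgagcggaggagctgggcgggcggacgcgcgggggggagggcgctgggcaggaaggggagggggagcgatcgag

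Sox11 and Sox4 each held 1 CAGCTG, beginning 210 and 211 bases before their starts. That word occurs in 13.0% of the 32851 promoters of this length in the RefSeq table. The RUNX word TGTGGT was found in Basp1 alone among the 4 printed promoters, 243 bases before its start, and occurs in 14% of all promoters. Nnat held none of the 4 words in this window. Basp1 had the most GC-rich of these promoters, with 78.8% G and C against a median of 52.4% over all promoters, and Nnat had 54.8%. RefSeq promoter entries were matched for 6 of the 10 genes. A match is a string of letters and does not show binding.

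Cd24a (chromosome 10, 43579169 to 43584265) encodes a small glycosylated, lipid-anchored surface protein that is abundant on young neurons and on several other immature cells. It was at 37.2 RPKM in TrkC, 55.1 in wild-type PV and 280 in mutant PV neurons. The mutant value was thus 7.53 and 5.08 times those of the other groups, and it moved Cd24a from the 93.5th and 95.7th percentile of all genes to the 99.6th. Per library it had 96.9, 38.4 and 66.8 CPM in TrkC (67.4 ± 29.3, SD, n = 3), 122, 90.9 and 87.1 in wild-type PV (100.0 ± 19.2) and 479, 459 and 586 in mutant PV neurons (508 ± 68.3). The lowest mutant library was far above the highest of the others. The authors' deposited tables gave log2 fold changes of -2.91 for TrkC over mutant neurons (adjusted edgeR p = 1.1e-20) and -2.34 for wild-type PV over mutant neurons (adjusted p = 8.6e-31). Wild-type PV neurons had a higher value than TrkC neurons, at a difference of 0.57 on the log2 scale that did not pass in the authors' deposited table (adjusted edgeR p = 0.29). Cd24a and Stmn2 were the members with that order.

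Nnat (chromosome 2, 157560078 to 157562525) is an imprinted gene, expressed from the paternal copy, and encodes neuronatin, a small membrane protein of the endoplasmic reticulum of developing neurons. Its RPKM was 35.1 in TrkC, 17.1 in wild-type PV and 156 in mutant PV neurons, which is 4.44 and 9.11 times higher in mutants. Per library it had 51.3, 15 and 86.6 CPM in TrkC (51 ± 35.8, SD, n = 3), 32.3, 19.8 and 22.4 in wild-type PV (24.8 ± 6.63) and 194, 377 and 109 in mutant PV neurons (227 ± 137). The mutant libraries differed widely among themselves but all lay above the rest. By the authors' deposited tables the log2 fold change was -3.19 for wild-type PV over mutant neurons (adjusted edgeR p = 7e-16) and -2.15 for TrkC over mutant neurons (adjusted p = 0.00054). Wild-type PV neurons had about 0.488 times the TrkC level, which did not pass in the authors' deposited table (log2 fold change -1.03, adjusted edgeR p = 0.19, unadjusted p = 0.014). Without the middle mutant library the log2 ratio of mean CPM was -2.61 for wild-type PV and -1.57 for TrkC neurons over mutants, and without the shallowest TrkC library the latter was -2.77. Nnat lies inside Blcap (chromosome 2, 157556362 to 157566361), and the sources used here do not say whether reads were assigned by strand. Blcap was at 11.3, 11.1 and 8.31 RPKM, lowest in mutants, and was not called. Peg3, another paternally expressed imprinted gene, was at 114, 128 and 140 RPKM and was not called either.

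Dcx (chromosome X, 143855842 to 143933396) encodes doublecortin, which stabilises microtubules in migrating and extending neurons. It was at 19.9 RPKM in TrkC, 7.14 in wild-type PV and 29.9 in mutant PV neurons. By group value TrkC neurons lay nearer the mutants than the wild-type PV group. Per library Dcx had 375, 56 and 313 CPM in TrkC (248 ± 169, SD, n = 3), 116, 71.5 and 78.8 in wild-type PV (88.8 ± 24) and 400, 506 and 212 in mutant PV neurons (373 ± 149). The TrkC libraries were split, 2 within the mutant range and 1 below every wild-type PV library. Wild-type PV neurons were lower than mutants by the authors' deposited table (log2 fold change -2.07, adjusted edgeR p = 3.4e-11) and lower than TrkC neurons (-1.48, adjusted p = 0.042). TrkC over mutant neurons was at -0.59 and not called in the authors' deposited table (adjusted edgeR p = 0.66). The call between wild-type PV and TrkC neurons therefore rests on 2 TrkC libraries, and the groups overlapped. Of its doublecortin-like relatives, Dclk2 and Dclk3 were called lower in wild-type PV than in mutant neurons, at -0.71 (adjusted edgeR p = 0.00093) and -1.0 (adjusted p = 0.0056) in the authors' deposited table, while Dclk1 was at 37.0, 33.6 and 45 RPKM and was not called.

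Gap43 and Basp1 encode growth cone proteins of the inner membrane surface that bind calmodulin and organise actin; Marcks and Marcksl1 belong to the same functional class. Gap43 (chromosome 16, 42248552 to 42340651) was at 208 RPKM in TrkC, 151 in wild-type PV and 310 in mutant PV neurons. Wild-type PV neurons were lower than mutants in the authors' deposited table (log2 fold change -1.03, adjusted edgeR p = 1.1e-06). TrkC neurons were at -0.58 and not called in the authors' deposited table (adjusted edgeR p = 0.19, unadjusted p = 0.03). Basp1 (chromosome 15, 25363277 to 25413764) was at 108, 103 and 168 RPKM, with TrkC and wild-type PV neurons almost level. By the authors' deposited tables it was lower than in mutants both in wild-type PV neurons (log2 fold change -0.71, adjusted edgeR p = 0.00031) and in TrkC neurons (-0.64, adjusted p = 0.019). Per library Gap43 had 322, 150 and 338 CPM in TrkC (270 ± 104, SD, n = 3), 236, 156 and 198 in wild-type PV (197 ± 40.2) and 441, 403 and 364 in mutant PV neurons (403 ± 38.3). Basp1 had 218, 164 and 219 CPM (200 ± 31.2, SD, n = 3), 198, 190 and 182 (190 ± 8.1) and 356, 290 and 288 (311 ± 38.5). For both genes every mutant library was the higher, and the middle TrkC library was the lowest of all. Both genes remained among the most abundant transcripts everywhere, at or above the 98.1th percentile in each group.

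Dcx, Gap43 and Basp1 had log2 fold changes between -0.58 and -0.64 for TrkC over mutant neurons in the authors' deposited table, with unadjusted p of 0.22, 0.03 and 0.0015. They were read about equally deeply, at about 2570, 3140 and 2540 reads per library. Their TrkC libraries spread unequally, over 56 to 375 CPM for Dcx, 150 to 338 for Gap43 and 164 to 219 for Basp1. Without the middle TrkC library the log2 ratio of mean CPM over mutants was -0.12 for Dcx, -0.29 for Gap43 and -0.51 for Basp1.

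Marcksl1 was at 44.6 RPKM in TrkC, 34.8 in wild-type PV and 39.9 in mutant PV neurons. Its libraries had 65.5 to 74.6 CPM in TrkC, 47.3 to 63.4 in wild-type PV and 61 to 68.1 in mutant PV neurons. It was not called in any comparison, and the largest of its differences was -0.36 for wild-type PV over TrkC neurons in the authors' deposited table (adjusted edgeR p = 0.29). Its relative Marcks, a substrate of protein kinase C, was at 17.9, 15 and 31.9 RPKM and was called lower in wild-type PV than in mutant neurons, at -1.09 in the authors' deposited table (adjusted edgeR p = 6.4e-07). For TrkC over mutant neurons Marcks was at -0.83 and not called in the authors' deposited table (adjusted edgeR p = 0.09). Marcksl1-ps4, a transcribed pseudogene with which Marcksl1 can share reads, was chosen for mention after its values were seen. It had 70, 1 and 0 reads in the mutant libraries, deepest first, and none in the 6 others, so its reads came almost wholly from 1 library. It was nevertheless called lower than in mutants by the authors' deposited tables, in TrkC (adjusted edgeR p = 0.0084) and in wild-type PV neurons (adjusted p = 0.0028).

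Stmn2 and Dpysl3 encode regulators of the axonal cytoskeleton: stathmin-2 binds tubulin, and the collapsin response mediator protein encoded by Dpysl3 takes part in growth cone guidance. Stmn2 was the most abundant of the 10 genes, at 435 RPKM in TrkC, 462 in wild-type PV and 484 in mutant PV neurons, at or above the 99.8th percentile of all genes. These values lay within a factor of 1.11 of each other. The authors' deposited tables gave log2 fold changes of -0.07 for wild-type PV over mutant neurons (adjusted edgeR p = 1) and -0.16 for TrkC over mutant neurons (adjusted p = 0.9). Reads of Stmn2 per library were not recovered, since the gene lay over the upper read limit of the search and was not searched. Dpysl3 was at 171, 158 and 195 RPKM, and its libraries had 467 ± 90.6, 432 ± 19.6 and 534 ± 54.6 CPM (SD, n = 3). Its log2 fold changes were -0.31 and -0.19 in the same comparisons of the authors' deposited tables (adjusted edgeR p = 0.21 and 0.82). Of the other stathmins, Stmn1 was at 32.4, 22.6 and 30.4 RPKM, Stmn3 at 308, 267 and 298 and Stmn4 at 46.8, 30.3 and 42.8, and none was called in either comparison with mutants. Among the other collapsin response mediator genes, Dpysl4, Dpysl5 and Crmp1 were called lower in wild-type PV than in mutant neurons, at -0.92, -0.48 and -0.55 in the authors' deposited table (adjusted edgeR p = 0.00031, 0.019 and 0.021). Dpysl2 was at 279, 256 and 240 RPKM, lowest in mutants, and was not called.

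Taking the 14 relatives as a list, 6 were called lower and 0 higher in wild-type PV than in mutant neurons (8.57% and 7.82% of all genes), with a median of -0.46 on the log2 scale in the authors' deposited table. In TrkC neurons 0 of 14 were called by edgeR against mutants, and 2 had an unadjusted p under 0.05. A list of 22 further genes of immature neurons and axon growth was split between directions. Against mutants, 5 were called lower and 5 higher in wild-type PV neurons (median -0.14), and 4 lower and 3 higher in TrkC neurons (median -0.19), where 4.2% of all genes were called lower and 5.87% higher.

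The genes of that list that were lower outside the mutants included Gpm6a, a membrane glycoprotein gene of filopodia, at 1.78 RPKM in TrkC, 3.42 in wild-type PV and 10.7 in mutant PV neurons. Klf7, a transcription factor gene for axon growth, was at 133, 124 and 279 RPKM. Tubb2b and Tuba1a, tubulins of young neurons, were at 177, 122 and 330 and at 1150, 938 and 1850 RPKM; tubulin genes are similar enough to share reads, so these levels are less certain. In the authors' deposited table their log2 fold changes for wild-type PV over mutant neurons were -1.65 for Gpm6a (adjusted edgeR p = 7.7e-06), -1.18 for Klf7 (1e-08), -1.43 for Tubb2b (2.7e-10) and -0.98 for Tuba1a (4.4e-07). All 4 were also called lower in TrkC than in mutant neurons. Going the other way were Ina, the neuronal intermediate filament alpha-internexin, at 111, 144 and 61.8 RPKM, and Gpm6b, a relative of Gpm6a, at 15.1, 12.3 and 5.86. The adhesion molecule gene Ncam1 was at 73.2, 60.4 and 43.2 RPKM. For wild-type PV over mutant neurons the authors' deposited table gave 1.22 for Ina (adjusted edgeR p = 1.6e-07), 1.06 for Gpm6b (0.00011), 0.48 for Ncam1 (0.032) and 0.45 for the RNA-binding protein gene Elavl4 (0.045).

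Among genes of mature large-diameter neurons more were called higher than lower outside the mutants. Of 17, 8 were called higher and 1 lower in wild-type PV than in mutant neurons (median 0.61), and 6 higher and 1 lower in TrkC than in mutant neurons (median 0.54). The shares of all genes are those given for the relatives and growth genes. The most abundant members did not follow: the neurofilament genes Nefl and Nefm were at 5120, 6380 and 7920 and at 3280, 4700 and 4850 RPKM, uncalled against mutants, and the summed RPKM of the list was highest in mutants (10800, 14000 and 14700). Of 12 pan-neuronal genes, 5 were called higher and 1 lower in wild-type PV than in mutant neurons (median 0.37), and 1 higher and 0 lower in TrkC neurons (median 0.18). Esrrg, an orphan nuclear receptor gene, was at 67.8 RPKM in TrkC, 72.3 in wild-type PV and 5.25 in mutant PV neurons. The sodium channel gene Scn1a was at 83.0, 93.5 and 31.2 RPKM and the potassium channel gene Kcnc1 at 11.1, 10.9 and 3.5. The gene called lower was Kcna2, another potassium channel gene, at 42.0, 50 and 73.3 RPKM. Some of these genes, among them Esrrg, are also known to be higher in proprioceptors, so the list does not measure maturity alone. For 9 of the 17 genes the order was wild-type PV, TrkC, mutant PV, the reverse of that of most of the 10 growth genes; 21.2% of expressed genes had it.

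**Figure D4:**
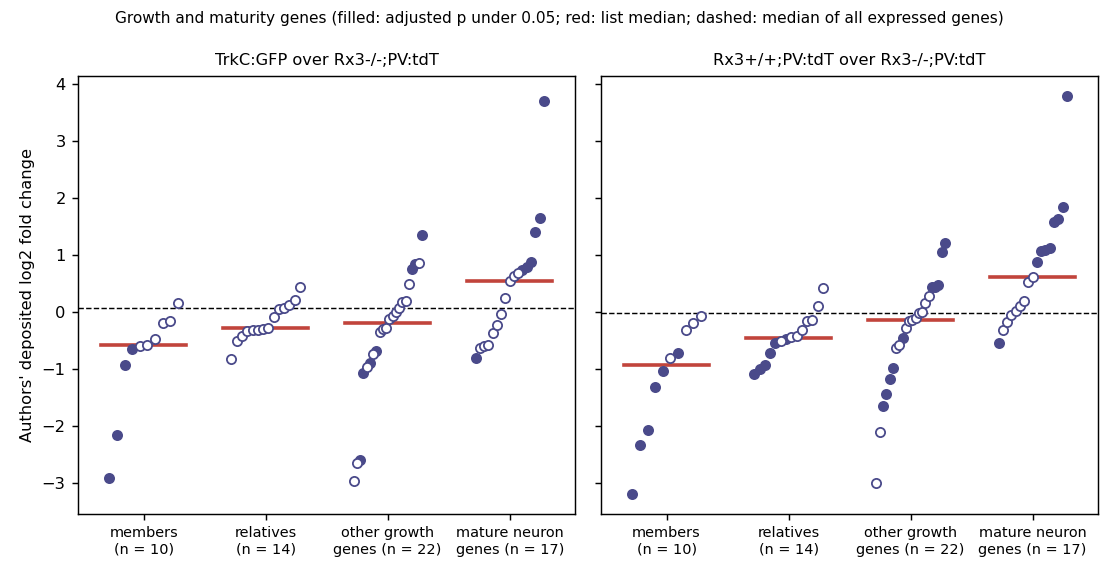
Log2 fold changes from the authors' deposited tables for the 10 genes, their relatives, other growth genes and mature neuron genes, 1 point per gene (filled: adjusted p under 0.05), with the list median in red and the median of expressed genes dashed. The 10 genes have medians of -0.58 and -0.92, the mature neuron genes 0.54 and 0.61, and the other growth genes spread to either side of 0.

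The tables also hold comparisons of joined groups. TrkC and wild-type PV neurons together against mutants gave 5 of the 10 genes called lower (Nnat, Sox11, Basp1, Gap43 and Cd24a) and 0 higher, where 7.96% of all genes were called lower, 8.82% higher and 16.8% either way. Dcx missed the threshold there, at -1.15 in the authors' deposited table (adjusted edgeR p = 0.074). TrkC neurons against both PV groups together gave 0 of the 10 called by edgeR, where 0.286% of all genes were called lower, 0.169% higher and 0.456% either way. In that comparison Cd24a alone had an unadjusted p under 0.05, with -2.17 on the log2 scale by the authors' deposited table (adjusted edgeR p = 0.058). These comparisons reuse the samples of the earlier ones.

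The 5 genes whose levels over the 3 groups were most like the median of the 10 were Creb3l1, Srcin1, Trappc10, Tomm6 and March8. They were found by the distance between log2 RPKM profiles, each centred on its own mean, among 5085 genes with a mean RPKM of 10 or more. Creb3l1 was at 10.4, 8.05 and 15.6 RPKM, 0.02 log2 units from the median profile. With 3 group values a profile has little detail, and 28 genes lay within 0.1 of it.

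Other cell types moved with the groups. Nociceptor and C-fibre markers summed to 101 RPKM in TrkC, 124 in wild-type PV and 377 in mutant PV neurons, and 6 of 12 were called lower than in mutants in each of the other groups, with 3 called higher in wild-type PV and 1 in TrkC neurons. Calca, which encodes CGRP, was at 1.74, 8.63 and 97.3 RPKM and Prdm12, a nociceptor transcription factor gene, at 0.824, 1.08 and 10.5, whereas Trpv1 and Trpm8 had no reads in mutants. Per mutant library Calca had 147, 6.16 and 280 CPM, lowest in the middle library, where Nnat, Dcx and Sox11 were highest. Glial markers summed to 458, 411 and 675 RPKM, of which Pmp22 was at 93.6, 103 and 375; of 10, 2 were called higher and 2 lower in wild-type PV than in mutant neurons. Cell cycle genes summed to 36.2, 30.2 and 36.6 RPKM, with 0 of 10 called higher and 2 lower in each of the other groups against mutants. The early neurogenic gene Nhlh1 had no reads in TrkC or wild-type PV libraries and 4, 1 and 0 in the mutant ones.

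Kidney markers summed to 3.22 RPKM in TrkC, 1.24 in wild-type PV and 35.1 in mutant PV neurons. Of 14, 10 were called lower in wild-type PV than in mutant neurons and 6 lower in TrkC than in mutant neurons. Ren2, a renin gene, stood at 26.1 RPKM in mutants and had no reads elsewhere. In the mutant libraries, deepest first, the podocyte gene Nphs1 had 122, 94 and 0 reads, the tubule gene Umod 62, 67 and 0, and Wt1 37, 32 and 0. The third library, at 4.5 M reads, thus lacked them. Against that library alone, the log2 ratio of mean CPM of wild-type PV neurons was -2.55 for Cd24a, -2.14 for Nnat, -1.25 for Dcx, -1.11 for Sox11, -0.89 for Gap43 and -0.6 for Basp1. For TrkC neurons it was -3.12 for Cd24a, -1.1 for Nnat, -0.72 for Sox11 and -0.53 for Basp1. The direction of these called differences could not change here, since every mutant library lay above every library of the group compared. Those of Nnat and Dcx were over 1.5 times smaller in ratio than with all mutant libraries. For Dcx in TrkC neurons, which was not called, the ratio turned to 0.23. Of the kidney progenitor genes, Six2 had 1 read in the deepest mutant library and 0 in the others, and Pax2 had none in mutants and 1, 2 and 1 in TrkC libraries. Endothelial and mural markers summed to 2.52, 2.2 and 6.94 RPKM, fibroblast markers to 5.49, 8.65 and 14.7, erythroid markers to 3.75, 1.8 and 7.36 and immune markers to 3.21, 2.52 and 1.23. Against mutants in wild-type PV neurons, 3 of 7 endothelial and mural markers were called lower and 0 higher, 2 of 7 fibroblast markers lower and 4 higher, 2 of 7 erythroid markers lower and 0 higher, and 0 of 7 immune markers lower and 1 higher. The fibroblast sum in mutants was mostly Mgp, at 10.9 RPKM, while Dcn was at 2.01, 3.42 and 0.171. The part of these cells in the levels of the 10 genes was not tested.

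**Figure D5:**
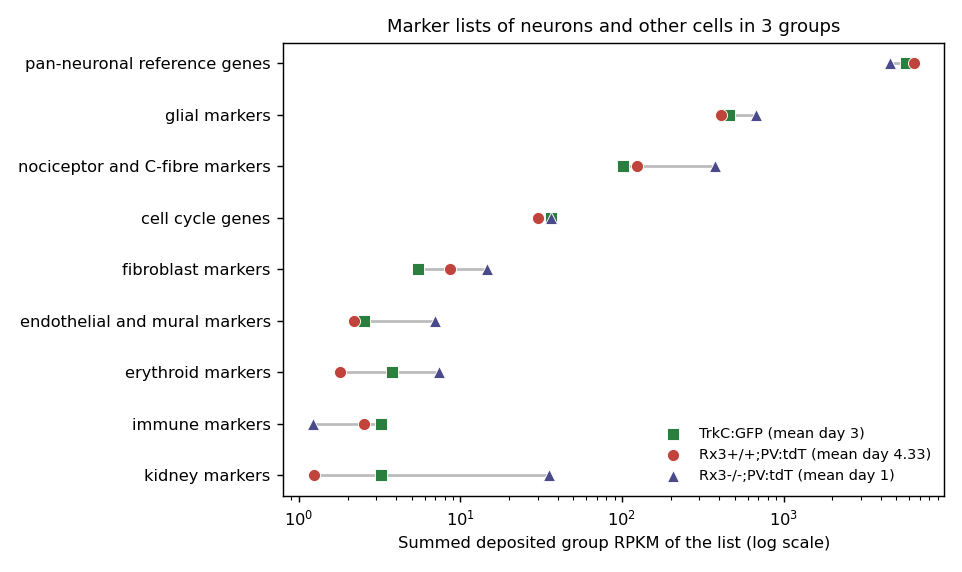
Summed deposited RPKM (log axis) of marker lists for neurons and other cells, 1 point per group, without error bars because the tables give 1 value per group. Mutant PV neurons (triangles) lie to the right for nociceptor and C-fibre markers at 377 and for kidney markers at 35.1, and to the left for pan-neuronal and immune genes.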

How the data were processed

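Sorted neurons gave RNA that was amplified as cDNA and sequenced single-end, per the labels' protocols. Per the submitters' processing notes, mm10 and edgeR were used; for the aligner, the counter and the kind of test, nothing is given in the sources used here. The authors deposited 5 comparison tables with log2 fold changes, mean log2 CPM, p-values, adjusted p-values and a flag. The same deposited tables hold 1 RPKM value per group. The column taken as TrkC:GFP is headed Rx3; its values equal those headed as samples 1 to 3 of the joined comparison. The flag was nonzero only where genes differed at least 2-fold with an adjusted p of at most 0.01. No test was refitted: the tables hold no counts per sample, and the authors' edgeR p-values were used as deposited.

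RPKM of genes without reads equalled 1 constant over whole-number gene lengths (tolerance 1e-06), as 1 added read per library would give; from this, genes without reads, library totals and, where gene length followed, reads per library were derived, after a test on simulated data. Where no group lacked reads, the whole gene length and whole reads per library that give the authors' RPKM to 15 digits in all 3 groups were searched for genes with 50 to 8000 reads per library, and kept where 1 solution was found with a length within 5% of that from the deposited mean log2 CPM. This gave 9 of the 10 genes, and the right length in 5 of 5 genes whose length was known. Approximate reads per library come from mean log2 CPM and the mean total of 10.8 M reads (M for mega). CPM per library was not adjusted for composition. RPKM of genes without reads includes that added read, and amplified reads are not independent molecules.

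Genes were matched by symbol or RefSeq gene ID (158 of 159 listed). The genes and lists were chosen with earlier results of these data known. Named relatives and growth genes were the called ones with the largest change, up to 4 per direction, and named genes of other lists the 3 highest or any called. Other named relatives, Nhlh1, Six2, Pax2 and Marcksl1-ps4 were added with their values known. Python 3.11.15, pandas 2.3.3 and NumPy 2.4.6 were used.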

Additional observations from a re-analysis of the deposited data

How the results depend on the processing

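Counts of the 10 genes called were recomputed at stricter limits. For TrkC over mutant PV neurons the count of 4 fell to 2 (Nnat and Cd24a) at an adjusted p under 0.01, with a 2-fold limit and by the authors' flag. For wild-type PV over mutant neurons it was 6, 5 and 5. For wild-type PV over TrkC neurons the 1 call, Dcx, became 0 at an adjusted p under 0.01 and by the flag. Joining TrkC and wild-type PV neurons gave 3 in place of 5 with a 2-fold limit and by the flag. Adjusting over the 18068 genes with reads, or the 13236 with an RPKM of 1 or more, changed 1 count: TrkC against both PV groups went from 0 to 1 (Cd24a), because fewer genes were tested. The settings for joined groups were added after the data were seen. With a 2-fold limit, also added later, calls against mutants in wild-type PV neurons went from 6 to 1 lower among relatives, from 5 to 2 higher and 5 to 3 lower among other growth genes, and from 1 to 0 lower among mature genes. In TrkC neurons they went from 3 to 1 higher and 4 to 2 lower among other growth genes, and from 6 to 3 higher and 1 to 0 lower among mature genes. At an adjusted p under 0.01 other growth genes higher in wild-type PV neurons fell to 2, and the mature gene lower in TrkC neurons to 0. RPKM ratios with no pseudocount or a pseudocount of 1 turned no fold of the 10 genes; centring on expressed genes took Basp1 for wild-type PV over TrkC neurons to 0.01, and centring on pan-neuronal genes, which shifts wild-type PV over mutant neurons by 0.37, took Marcksl1 for TrkC over mutant neurons to -0.02 and Stmn2 for wild-type PV over TrkC neurons to -0.02, none of them called. Comparisons of joined groups turned 7 uncalled folds, but they are other contrasts. For wild-type PV over TrkC neurons, the joined comparison adds the mutant libraries to the wild-type PV side. All turned folds but that of Marcksl1 for TrkC over mutant neurons were of this kind, as with Nnat, from -1.03 to 1.3. Each library was left out in turn for the 9 genes with recovered reads, an alternative added later. For called differences against mutants the libraries did not overlap, so the log2 ratio of mean CPM could not change its sign. For Dcx in wild-type PV over TrkC neurons, called with overlapping libraries, that ratio ran from -1.95 to -1.05. Among uncalled differences, Sox4 and Dpysl3 for wild-type PV over TrkC neurons reached 0.13 and 0.01. Calls without single libraries were not run, since they need a fit over all genes. No paired analysis was possible because recovered libraries are known by depth and carry no replicate number.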
